A study of Mus musculus with 3 samples.

Results

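The immediate early genes Fos, Fosb, Jun, Junb, Jund, Egr1, Atf3, Ier2, Dusp1 and Nr4a1 were followed through all cells of 3 single-cell RNA libraries of the mouse lung. They were chosen by name, as 10 of the 22954 genes listed in each table, with no threshold on a measured value. All 10 were above 0 in some cells of every library. The libraries came from 1 female wild-type (WT) C57BL6/J mouse each, and the thorax had received 13 Gy 5 months before the lungs were collected. The CONV mouse was irradiated at the conventional dose rate and the FLASH mouse at the ultra-high dose rate. The CONV AsiDNA mouse was irradiated like the CONV mouse and had received AsiDNA, a DNA decoy that engages DNA repair enzymes, at 100 mg/kg on the preceding days and at 200 mg/kg on the day of irradiation. All mice in these groups were therefore irradiated, while control libraries were not analysed here. Because each condition rests on 1 mouse, no replicate and no test can be given, and a difference between libraries cannot be told apart from a difference between mice.

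Immediate early genes are transcribed within minutes of a stimulus without the need for new protein, mainly through serum response factor with its ternary complex partners and through CREB. Fos and Jun family proteins pair through leucine zippers to form AP-1, Egr1 is a zinc finger factor, and Dusp1 is a phosphatase that switches off MAP kinases. Enzymatic dissociation of tissue at warm temperature is itself a known stimulus, and these lungs were dissociated with dispase and then with elastase at 37 °C before encapsulation. No library without dissociation was analysed, so the state of these genes in the intact lung and their induction during preparation cannot be told apart.

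There were 6372 CONV cells, 6983 CONV AsiDNA cells and 6267 FLASH cells. The adjusted counts, which are the whole numbers behind the deposited logarithms, had a median of 3450, 3678 and 3621 per cell, and between 9 and 17 cell barcodes were shared by any pair of libraries. Marker genes assigned 18521 of 19619 cells to 24 types, and 23 types had at least 20 cells in each library. None of the 10 genes was used as a marker, and none stood among the 10 leading genes of any type. The level of a gene in a type is its sum per 1000000 adjusted counts of that type (adjusted CPM). The percentage of cells above 0 is added, with exact Clopper-Pearson 95% intervals that cover the sampling of cells only. Where 3 values follow each other with no library named, they stand in the order CONV, CONV AsiDNA and FLASH. A gene listed at 0 is not read as absent, because mt-Co1, a mitochondrial gene that all cells need, stood at 0 in every cell of 10, 8 and 3 of the 23 types.

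Promoters from RefSeq (GRCm38.p6) were used for 8 of the 10 genes, without Egr1 and Ier2, and 4 are printed. These 4 were taken because the levels of Fos and Fosb varied together over cell types while Dusp1 and Nr4a1 had their highest median over libraries in other types. Each run holds the 250 bases before the RefSeq start, 5′ to 3′, for Fos (chr12:85473640-85473889, plus strand), Fosb (chr7:19310046-19310295, minus strand), Dusp1 (chr17:26508473-26508722, minus strand) and Nr4a1 (chr15:101266596-101266845, plus strand). For Fosb, Dusp1 and Nr4a1 this start lies inside the GENCODE gene span given with the gene. Capitals mark matches to the motifs searched.
Fos: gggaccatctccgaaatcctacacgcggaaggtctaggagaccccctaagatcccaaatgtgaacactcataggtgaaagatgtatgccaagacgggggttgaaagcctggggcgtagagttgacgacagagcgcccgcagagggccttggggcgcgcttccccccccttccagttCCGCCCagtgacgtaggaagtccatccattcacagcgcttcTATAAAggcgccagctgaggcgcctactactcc
Fosb: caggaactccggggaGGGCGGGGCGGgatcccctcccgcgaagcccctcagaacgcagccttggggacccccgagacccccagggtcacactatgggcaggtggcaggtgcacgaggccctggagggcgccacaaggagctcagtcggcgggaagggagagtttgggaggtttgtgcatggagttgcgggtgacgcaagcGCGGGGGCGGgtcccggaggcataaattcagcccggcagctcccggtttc
Dusp1: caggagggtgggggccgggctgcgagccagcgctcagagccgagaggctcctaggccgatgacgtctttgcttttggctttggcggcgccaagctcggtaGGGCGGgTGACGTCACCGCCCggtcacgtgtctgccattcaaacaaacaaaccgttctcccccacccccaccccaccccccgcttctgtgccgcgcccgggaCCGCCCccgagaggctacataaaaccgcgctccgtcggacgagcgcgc
Nr4a1: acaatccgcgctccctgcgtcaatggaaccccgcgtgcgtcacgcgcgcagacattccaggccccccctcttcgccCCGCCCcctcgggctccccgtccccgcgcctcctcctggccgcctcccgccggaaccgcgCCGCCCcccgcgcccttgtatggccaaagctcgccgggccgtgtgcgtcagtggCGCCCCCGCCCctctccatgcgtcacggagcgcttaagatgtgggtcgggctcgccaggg

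The motifs were searched on both strands. The cyclic AMP response element TGACGTCA, the site of CREB and ATF proteins, was found in Dusp1 only among the 8 genes, from 143 to 136 bases before the start, and in 1.55% of all 32841 promoters. The EGR site GCGGGGGCG was found in Fosb, ending 42 bases before the start, and on the opposite strand in Nr4a1, against 2.57% of all promoters. The GC box GGGCGG, which overlaps the EGR site in both genes, was found in 6 of the 8 genes and in 32.7% of all promoters. TATAAA was found in Fos, from 33 to 28 bases before the start, and in 12.4% of all promoters. The AP-1 site (TGACTCA or TGAGTCA) and the CArG box bound by serum response factor were found in none of the 8 windows. They were found in 4.46% and 1.47% of all promoters. The promoters of Egr1 and Ier2 were not searched, so nothing is said on these sites there. The Jund window (chr8:70697489-70697738) held no match, and it does not adjoin the GENCODE start of the gene at 70698949. These are matches of letters in a short window and carry no information on binding.

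Fos, on chromosome 12 (85473890 to 85477273, GRCm38), codes for the AP-1 partner c-Fos. Its level ranged over the cell types from mast cells and basophils, with 19804, 8318 and 5306 adjusted CPM, to aerocytes, the thin capillary cells of gas exchange, with 216 in CONV and a listing at 0 in the other libraries. By the median over libraries, mesothelial cells followed with 4843, 5187 and 3422 adjusted CPM, and interstitial macrophages with 3700, 4423 and 5283. Mast cells and basophils were above every other type within each library, but in FLASH they exceeded interstitial macrophages by little. The cells of this class were not alike, and its cells with the basophil gene Mcpt8 did not share this place, as given below. Of the 22 neighbouring pairs in the order of types by median level, 18 overlapped over the 3 libraries. In NK cells, Fos was listed at 0 in CONV, with 16.6 adjusted CPM for CONV AsiDNA and 1.64 for FLASH.

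Fosb, on chromosome 7 (19302696 to 19310051, GRCm38), codes for a close relative of c-Fos, and over the 69 points of type and library its log level followed that of Fos with a Pearson r of 0.89. The points share libraries and cell types, so this is a description. Its level was again highest in mast cells and basophils, at 9868, 4852 and 4764 adjusted CPM. It departed from Fos in group 2 innate lymphoid cells, which held the second place for Fosb by the median over libraries, with 2500, 2135 and 1762 adjusted CPM, and were above 0 for Fosb in 71.6%, 79.5% and 63.4% of cells. In the same cells, Fos was above 0 in 31.3%, 46.6% and 19.5%. The order of types therefore differed between these related genes within each library.

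Jun, on chromosome 4 (95049034 to 95052222, GRCm38), codes for the main partner of c-Fos, and its distribution over cell types was not that of Fos. Aerocytes held 1935, 1613 and 1961 adjusted CPM of Jun and were above 0 in 95.5%, 92.3% and 91.6% of cells, while Fos was above 0 in 7.46% of CONV aerocytes and listed at 0 in those of the other libraries. Neutrophils showed the opposite, with Fos at 2349, 2188 and 2265 adjusted CPM and Jun at 9.30, 20.2 and a listing at 0. The listed order of aerocytes and neutrophils was thus opposite for these genes in each library. It rests on a listing at 0 for Fos in CONV AsiDNA and FLASH, and for Jun in FLASH. In aerocytes mt-Co1 was above 0 in 0 of 67, 1 of 169 and 0 of 179 cells. In neutrophils it was above 0 in 1 of 266, 3 of 308 and 0 of 303 cells, so these listings are not read as absence. Mast cells and basophils had the highest Jun, at 18332, 8165 and 5995 adjusted CPM, followed, by the median over libraries, by fibroblasts with 2936, 4173 and 4650.

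Junb, on chromosome 8 (84974484 to 84978718, GRCm38), codes for a Jun family member that is prominent in leukocytes. Its level over the 69 points had a Pearson r of -0.12 with that of Jun. Mast cells and basophils stood at 14022, 8318 and 12373 adjusted CPM, neutrophils at 6294, 5385 and 5912, and group 2 innate lymphoid cells at 5104, 3581 and 4070. The ranges of these types did not overlap. NK cells, which were at or near 0 for Fos, Fosb and Jun, held 2236, 2885 and 2508 adjusted CPM of Junb. Aerocytes were lowest, with 156 and 109 adjusted CPM in CONV and FLASH and a listing at 0 in CONV AsiDNA.

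Jund, on chromosome 8 (70698949 to 70700616, GRCm38), codes for the Jun family member known for steady expression, and it was the only one of the 10 genes above 0 in all 3 libraries in all 23 types. After mast cells and basophils, with 6630, 4508 and 5355 adjusted CPM, its median level over libraries was highest in B cells, with 1707, 2713 and 2435. By the same median it was lowest in mature dendritic cells, with 322, 359 and 377 adjusted CPM, although alveolar macrophages were lower in CONV (272) and ciliated cells in CONV AsiDNA (343). B cells were low for Fos, with 129, 539 and 228 adjusted CPM.

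Egr1, on chromosome 18 (34859823 to 34864984, GRCm38), codes for a zinc finger factor under control of serum response factor. Its level was 6034, 2930 and 2647 adjusted CPM in mast cells and basophils and 1427, 1953 and 2079 in fibroblasts, and it was listed at 0 in every cell of patrolling monocytes and NK cells in the 3 libraries. Alveolar macrophages were above 0 for Egr1 in 0.107% of cells in CONV and 0.303% in CONV AsiDNA and listed at 0 in FLASH. The same macrophages were above 0 for Fos in 71.6%, 82.7% and 76.2% of cells. Egr1 was above 0 in at most 0.407% of Gpnmb+ or of Gpnmb- alveolar macrophages in any library, and zeros in these cells are not read as absence.

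Atf3, on chromosome 1 (191170296 to 191218039, GRCm38), codes for a stress-induced bZIP factor. By the median over libraries it was highest in interstitial macrophages, with 1030, 1504 and 1673 adjusted CPM, and in mesothelial cells, with 1305, 1860 and 1076, and these ranges overlapped. Mast cells and basophils, which led most of the other genes, held 184, 127 and 148 adjusted CPM and were above 0 in 8.65%, 2.67% and 4% of cells. In B cells, T cells and NK cells, Atf3 was listed at 0 in all libraries.

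Ier2, on chromosome 8 (84661331 to 84662852, GRCm38), codes for a nuclear protein of the early growth response. It stood at 1631, 1233 and 1970 adjusted CPM in mast cells and basophils and at 782, 946 and 628 in endothelial cells of large vessels. It was near 0 in alveolar macrophages, with a listing at 0 for CONV, 12.6 adjusted CPM for CONV AsiDNA and 1.27 for FLASH. Its order over types was the least sharp together with that of Egr1, since 21 of 22 neighbouring pairs overlapped.

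Dusp1, within chromosome 17 (26505590 to 26562128, GRCm38), was highest in neutrophils, with 5631, 3653 and 4630 adjusted CPM and 98.9%, 93.8% and 95.05% of cells above 0. Mast cells and basophils followed with 8553, 3054 and 3090 adjusted CPM, and patrolling monocytes with 3568, 2019 and 2546. The first of these exceeded neutrophils in CONV only, and the ranges of all 3 types overlapped their neighbour. B cells were listed at 0 for Dusp1 in all 3 libraries, among 1300, 1576 and 1139 cells.

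Nr4a1, on chromosome 15 (101254269 to 101274795, GRCm38), codes for an orphan nuclear receptor that patrolling monocytes need for their development. Patrolling monocytes held 3512, 3782 and 3300 adjusted CPM, and 97.6%, 99.6% and 99.7% of them were above 0. This range did not overlap that of mast cells and basophils, the next type, with 2320, 2424 and 2019. Fosb was above 0 in 17.1% of patrolling monocytes in CONV and 17.0% in CONV AsiDNA and listed at 0 in FLASH, and Egr1 was listed at 0 in all libraries. In the same monocytes mt-Co1 was above 0 in 9 of 41, 0 of 223 and 17 of 324 cells, so these listings are not read as absence. Among the 10 genes, Nr4a1 had the steepest fall from its highest type to its middle type, 22.6-fold, against between 4.38-fold for Atf3 and 8.31-fold for Junb in the other genes.

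**Figure D1:**
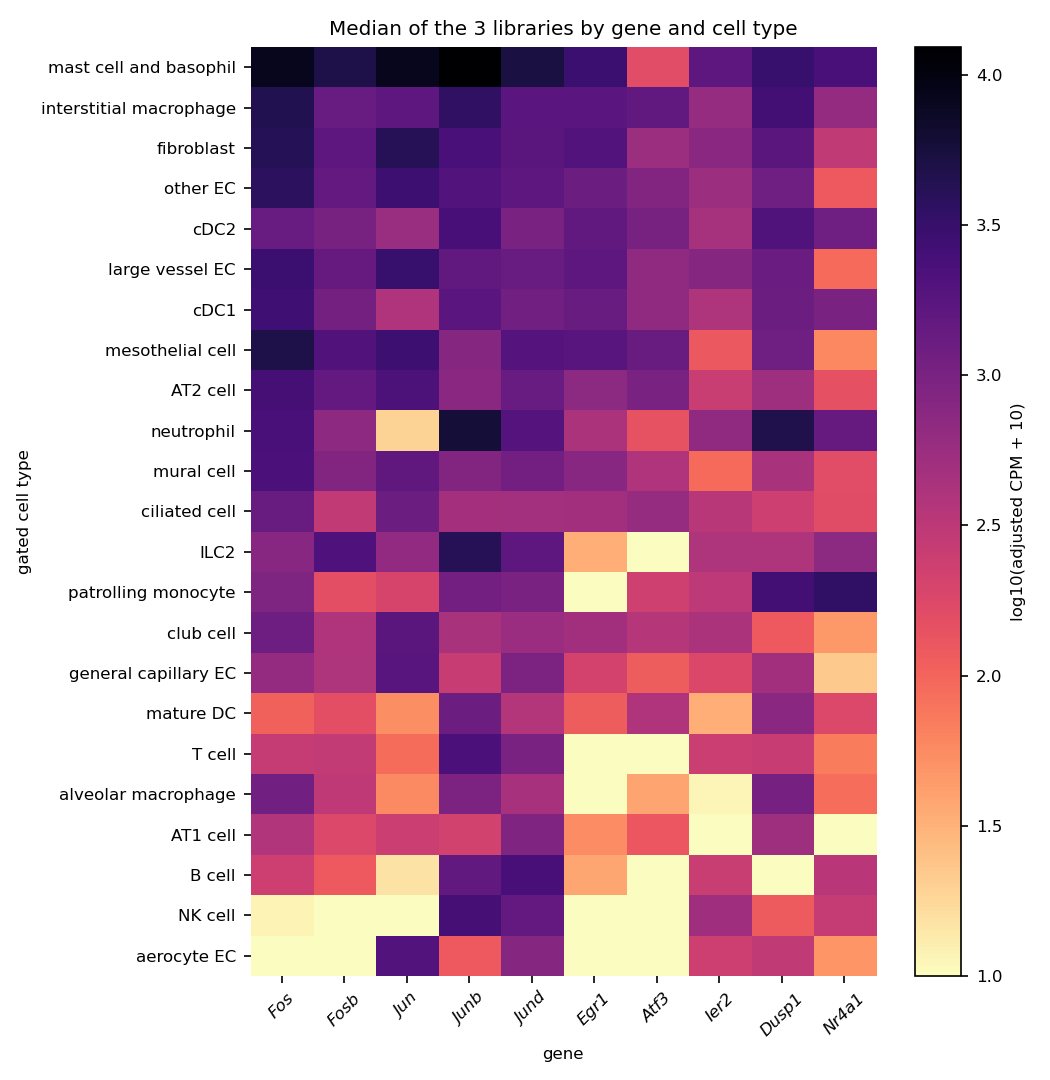
Median over the 3 libraries of log10(adjusted CPM + 10) for the 10 genes (columns) in the 23 gated cell types (rows, ordered by their mean), with darker colour for higher levels. Mast cells and basophils are dark in most columns, while Jun is pale in neutrophils and NK cells and dark in aerocytes, and Nr4a1 is darkest in patrolling monocytes.

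The class of mast cells and basophils held different cells in the 3 libraries, because the proteases of mast cells and the basophil protease Mcpt8 differed. Mcpt8 was above 0 in 9.62%, 48.0% and 72.0% of its 104, 75 and 25 cells, and the mast cell chymase Cma1 in 95.2%, 66.7% and 28.0%. The class was therefore split, after its values were seen, into cells with at least 2 of Mcpt4, Cma1 and Tpsb2 and no Mcpt8, and cells with Mcpt8 and fewer than 2 of these. Among the former, Fos stood at 21107 adjusted CPM in 92 CONV cells, 15584 in 36 CONV AsiDNA cells and 16105 in 5 FLASH cells. Among the latter, it stood at 697 in 5 CONV cells, 1288 in 31 CONV AsiDNA cells and 2402 in 17 FLASH cells. Cells with mast cell genes were thus higher for Fos in each library. The Mcpt8 cells were below interstitial macrophages and mesothelial cells for Fos in each library, so the first place of the class does not extend to them. Before the split, 5 genes were at least 2-fold higher in CONV than in CONV AsiDNA (9.43% of all genes tested) and 5 than in FLASH (29% of all genes tested). After the split, 1 gene, Dusp1, was so in CONV over CONV AsiDNA among the cells with mast cell genes (10.3% of 2649 genes tested), and the median log2 ratio over the 10 genes was 0.55, beside 0.89 in the undivided class. The other comparisons after the split rest on 5 FLASH cells with mast cell genes, 5 CONV cells with Mcpt8 or 17 FLASH cells with Mcpt8, all below the 20 cells asked of a type, and no counts are given for them. Junb was also higher in the cells with mast cell genes, with 14662, 9087 and 12728 adjusted CPM against 6489, 7773 and 12348 in Mcpt8 cells, by a smaller ratio than Fos.

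Within the types, the conditions were compared by the log2 ratio of adjusted CPM, each raised by 10, which understates the change of low genes. Differences of at least 2-fold were counted and set beside the share of all genes tested in the same type. The comparisons of CONV with each of the other libraries share the CONV library.

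General capillary endothelial cells, the progenitor-like cells of the alveolar capillary, were higher in CONV for all 10 genes. Fos stood at 3002, 276 and 617 adjusted CPM, and was above 0 in 43.9% of 189 cells (interval 36.7% to 51.3%), 10.6% of 180 cells (6.48% to 16.0%) and 12.5% of 192 cells (8.18% to 18.03%). With every cell thinned to 1000 adjusted counts, the shares were 40.2%, 7.22% and 10.4%. CONV was thus apart from the other libraries, which overlapped each other. The mitochondrial gene mt-Co1 was above 0 in 0 of 189, 32 of 180 and 71 of 192 of these cells, the median mitochondrial share was 0.104%, 0.517% and 0.906%, and their part in the result was not tested. Egr1 stood at 1121, 83.1 and 202 adjusted CPM and Junb at 1581, 251 and 228. Nr4a1 was above 0 in 31.7% of CONV cells and 2.78% of CONV AsiDNA cells, with a listing at 0 for FLASH. In this type, 8 of the 10 genes were at least 2-fold higher in CONV than in CONV AsiDNA (5.13% of 8698 genes tested) and 8 were so against FLASH (5.84%), with Nr4a1, listed at 0 in FLASH, among the latter. All 10 log2 ratios were above 0 in both comparisons, with medians of 2.54 and 2.05 (1.83 over the 9 genes above 0 in FLASH), beside -0.08 and -0.06 over all genes tested.

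Jun and Jund were the exceptions among these endothelial cells. Jun was above 0 in 81.0%, 87.2% and 90.6% of cells and Jund in 73.0%, 68.3% and 72.9%, so the shares of the libraries overlapped for these genes, while CONV was above both other libraries without overlap for the remaining 8. Over all genes tested in the type, 3.66% lay above both without overlap of the intervals and 3.99% below. Of the 38 other primary response genes listed, 32 were tested here, and 18 were at least 2-fold higher in CONV against each of the other libraries.

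Fibroblasts differed in the opposite direction. Fos stood at 2606, 4268 and 4657 adjusted CPM, Fosb at 981, 1659 and 2007, and Dusp1 at 1027, 1689 and 2141. CONV was lowest for all 10 genes. In these fibroblasts mt-Co1 was above 0 in 0 of 64, 44 of 116 and 114 of 170 cells, and its part in the result was not tested. The gap was smaller than in capillary cells, with 2 genes at least 2-fold lower against CONV AsiDNA (5.21% of 7464 genes tested) and 3 against FLASH (5.35%), and with medians of -0.65 and -0.78 beside 0.0005 and -0.01 over all genes tested. For 0 of the 10 genes did the CONV interval of the share of cells lie below both others (0.67% of all genes tested), with 64 CONV fibroblasts, 116 of CONV AsiDNA and 170 of FLASH. The genes lower by at least 2-fold were Ier2 and Nr4a1 against CONV AsiDNA and Fosb, Ier2 and Dusp1 against FLASH.

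**Figure D2:**
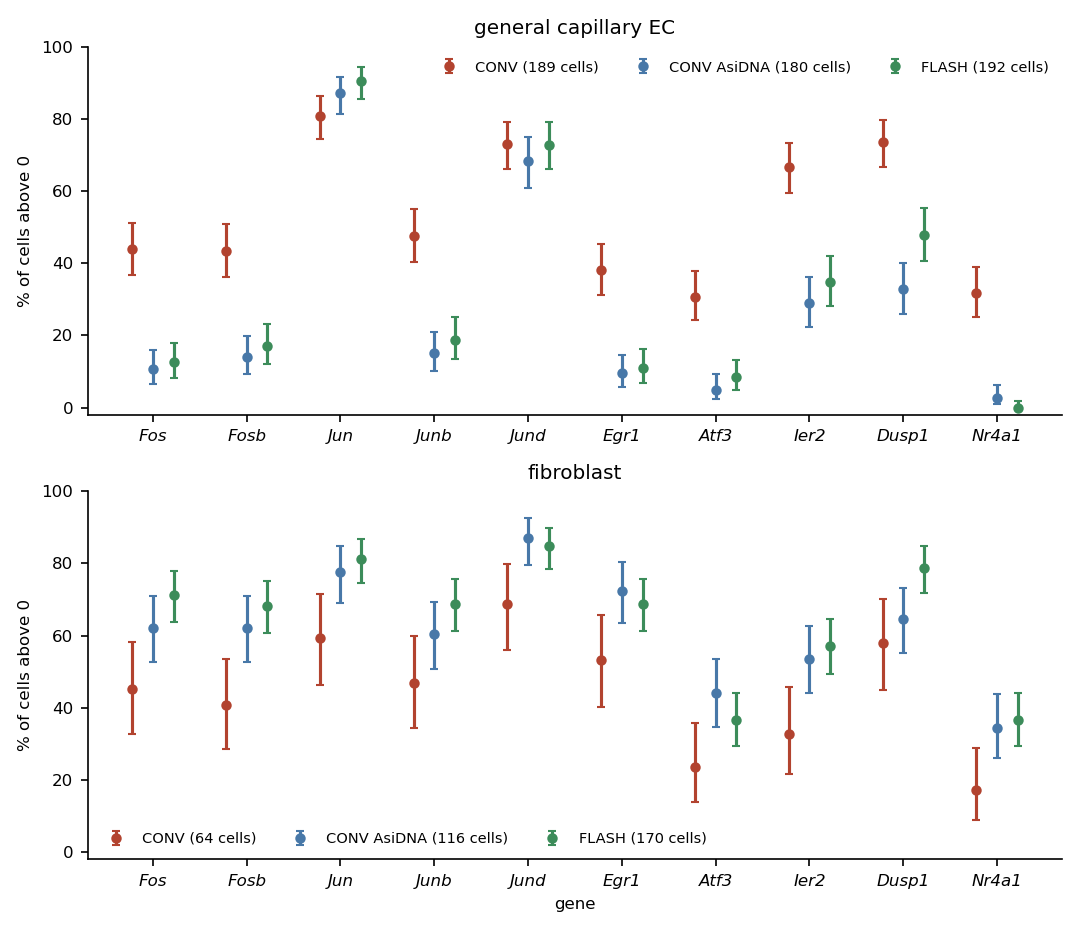
Share of cells above 0 (percent, vertical axis) for each of the 10 genes (horizontal axis) in general capillary endothelial cells (top) and fibroblasts (bottom), with points for the 3 libraries and bars for exact 95% intervals over cells. CONV lies above both other libraries for 8 genes in the capillary cells, and it has the lowest point for every gene in fibroblasts, where its bars overlap those of at least 1 other library.

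The genes were found together in the same cells. The number of them above 0 per cell split fibroblasts of all libraries and general capillary cells of CONV into low and high cells. FLASH capillary cells had a small high group. Those of CONV AsiDNA formed a single group with a tail, with 32 cells at 4 to 6 genes and 10 at 7 or more. Among general capillary cells, at least 7 of the 10 genes were above 0 in 40.2% (33.2% to 47.6%), 5.56% (2.70% to 9.98%) and 10.9% (6.90% to 16.2%) of cells. Among fibroblasts, the shares were 42.2%, 53.4% and 63.5%, and at most 3 genes were above 0 in 34 of 64, 41 of 116 and 44 of 170 cells. Few fibroblasts lay between, with 3, 13 and 18 cells at 4 to 6 genes. Across single fibroblasts, Fos and Jun had a Pearson r of 0.90, 0.91 and 0.91, while the summed level of the 10 genes had an r of 0.22, 0.24 and 0.17 with the total of the cell. Cells of 1 library share their preparation, and these correlations are descriptions.

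Neutrophils were different, because nearly all of them were above 0 for several of the genes and the genes did not vary together. The median r between pairs of the genes was 0.09, 0.17 and 0.17, against 0.71, 0.75 and 0.63 in fibroblasts. The median number of genes above 0 per neutrophil was 7, 6 and 6, and 0 of the 266, 308 and 303 neutrophils were above 0 for all 10. NK cells had medians of 3, 3 and 2 genes and no cell with 7 or more. Interstitial macrophages had medians of 8, 9 and 9, and 71.9%, 85.1% and 86.9% of them held at least 7 genes.

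**Figure D3:**
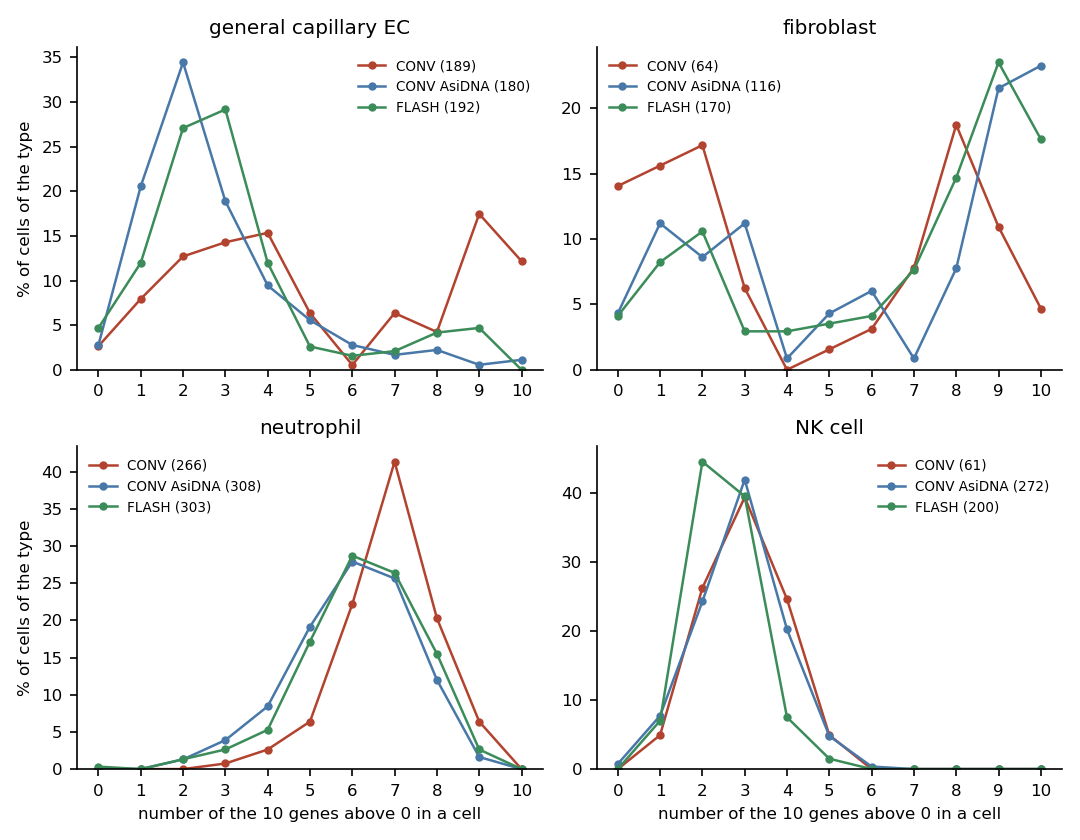
Share of cells (percent, vertical axis) by the number of the 10 genes above 0 in a cell (horizontal axis) in 4 types, with a line for each library and its number of cells in parentheses. Capillary cells of CONV have a second group at 7 to 10 genes that is small in FLASH and only a tail in CONV AsiDNA. Fibroblasts form low and high groups in all libraries, and neutrophils and NK cells form a single group.

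Cells with many of these genes differed from cells with few in other respects. In CONV capillary cells, the 76 cells with at least 7 genes held 1107 adjusted CPM of Cldn5, a tight junction gene of endothelium, against 4435 in the 71 cells with at most 3, and Car4, an enzyme of capillary endothelium, stood at 6.82 against 275. Ednrb went the other way, at 64.7 against 29.2. Of the markers of the type, Kit stood at 54.5 against 358 and Gpihbp1 at 1336 against 1930, while Plvap stood at 1772 against 1030 and Aplnr at 204 against 150.05. The other libraries differed in part, with Plvap lower in the cells with at least 7 genes (1771 against 1939 in CONV AsiDNA and 2281 against 2526 in FLASH) and Aplnr lower in those of FLASH (22.1 against 42.7). These values rest on only 10 CONV AsiDNA cells and 21 FLASH cells with at least 7 genes. Ptprc, the leukocyte gene CD45, was listed at 0 in both groups of capillary cells in every library. The libraries also differed in Lyve1, a leading gene of the large vessel type. It stood at 313, 1551 and 2953 adjusted CPM in capillary cells with at most 3 genes. In those with at least 7 it stood at 402, 1101 and 3620. Vwf followed another order, with 1396, 1016 and 1149 in capillary cells with at most 3 genes. In CONV capillary cells, the median mitochondrial share was 0.0491% with at least 7 genes and 0.257% with at most 3. In fibroblasts, the mitochondrial share was likewise lower in the cells with at least 7 genes in each library, at 0.0725%, 0.0974% and 0.361% against 0.348%, 0.780% and 0.981%. Hspa1a, a heat shock gene, was higher in these fibroblasts, at 441, 628 and 547 adjusted CPM against 6.99, 41.03 and 28.3. The part of these differences in the gap between libraries was not tested.

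Epithelial cells differed by type. In AT2 cells, the surfactant producers, Egr1 stood at 1395, 697 and 460 adjusted CPM and was above 0 in 75.2%, 46.6% and 40.8% of cells. Nr4a1 stood at 333, 138 and 128. All 10 genes were higher in CONV in both comparisons, but most by little, with 1 at least 2-fold higher against CONV AsiDNA (2.66% of all genes tested) and 2 against FLASH (3.93%). The medians were 0.34 and 0.32, and over all genes tested 0.02 and 0.11. The CONV interval of the share of cells lay above both others for 5 of the 10 genes in AT2 cells and for 7.35% of all genes tested there. In AT1 cells, which are the flat cells of gas exchange, Fos stood at 1276, 362 and 215 adjusted CPM and Junb at 716, 124 and 206. In AT1 cells, 7 genes were at least 2-fold higher in CONV against CONV AsiDNA (10.4%) and 7 against FLASH (10.7%), on 95, 63 and 120 cells. Of the latter, Egr1, Atf3 and Ier2 rest on a listing at 0 for FLASH, and Ier2 was also at 0 for CONV AsiDNA. Nr4a1 went the other way in AT1 cells, with 110.1 adjusted CPM for FLASH and a listing at 0 for both other libraries. The CONV interval of the share of cells lay above both others for 0 of the 10 genes in that type, against 1.15% of all genes tested. In club cells, all 10 genes were higher in CONV, with 3 at least 2-fold higher in each comparison (5.25% and 13.4% of all genes tested). Dusp1 stood at 376, 31.6 and 109 adjusted CPM there. Ciliated cells set CONV AsiDNA apart instead, with all 10 genes lower than in both other libraries. Fos stood at 1310.5, 857 and 1336 adjusted CPM in ciliated cells and Jun at 1267, 742 and 1248. The median log2 ratio there was 0.65 in CONV over CONV AsiDNA and -0.70 in CONV AsiDNA over FLASH, beside 0.04 and 0.06 over all genes tested.

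Conventional dendritic cells of type 1 were lower in CONV. Junb stood at 735, 1823 and 1737 adjusted CPM, and Jund at 524, 1189 and 1149. In CONV, 6 genes were at least 2-fold lower than in CONV AsiDNA (7.92% of all genes tested) and 4 than in FLASH (6.66%), on 44 CONV cells. Dusp1, with 1259, 1251 and 1230 adjusted CPM, and Nr4a1, with 990.1, 1126 and 766, did not share this difference. In interstitial macrophages, the medians of the log2 ratios were -0.18 and -0.32. Neutrophils had medians of 0.60 and 0.53, with 2 genes, Atf3 and Nr4a1, at least 2-fold higher in CONV in each comparison (4.4% and 8.62% of all genes tested). Jun was lower than in CONV AsiDNA (-0.65) and Egr1 lower than in FLASH (-0.43). In neutrophils, Nr4a1 stood at 3062, 1367 and 984 adjusted CPM and was above 0 in 97.0%, 73.4% and 69.3% of cells.

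Endothelial cells outside the general capillary were less even. In large vessels, Fos stood at 3641, 2944 and 2827 adjusted CPM and Egr1 at 1576, 1799 and 1478, without a library set apart. Nr4a1 in the same cells stood at 293 and 82.4 adjusted CPM in CONV and CONV AsiDNA, with a listing at 0 for FLASH. The endothelial cells with no subtype, whose leading genes were lymphatic (Ccl21a, Mmrn1 and Prox1), were lowest in CONV AsiDNA for every one of the 10 genes but Nr4a1 (366 and 112 adjusted CPM, and listed at 0 in the FLASH library), with Fos at 3776, 2123 and 4500 adjusted CPM and Ier2 at 926, 215 and 537. In CONV over CONV AsiDNA, 5 of the 10 genes were at least 2-fold higher in these cells (6.84% of all genes tested), with a median of 1.16. In aerocytes, 8 of the 10 genes were tested and 5 of these were at least 2-fold higher in CONV over CONV AsiDNA (7.17%), with a median of 1.40, of which Fos, Fosb and Junb rest on a listing at 0. Of the 67 CONV aerocytes, 51 had at most 3 of the 10 genes above 0 and only 3 had at least 7. A gap between CONV and CONV AsiDNA was therefore not limited to general capillary cells, though few aerocytes held many of the genes. Dusp1 was above 0 in 41.8%, 11.2% and 52.5% of aerocytes.

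Among NK and T cells, CONV had the highest level and share of cells for Dusp1. It was above 0 in 29.5%, 14.3% and 3.5% of NK cells and in 26.6%, 18.1% and 14.7% of T cells. Junb, the most widespread of the 10 genes in T cells, was above 0 in 78.5%, 82.8% and 84.5% of them, with 2392, 2220 and 2045 adjusted CPM. Of 9 genes tested in T cells, 4 were at least 2-fold higher in CONV over FLASH (1.55% of all genes tested), with a median of 0.95. Against CONV AsiDNA, 1 was so (1.02%), with a median of 0.11. The CONV interval of the share of T cells lay above both others for 4 of the 10 genes (3.92% of all genes tested) and below for 1 (9.3%). Group 2 innate lymphoid cells held 1608, 705 and 410 adjusted CPM of Nr4a1, highest in CONV, on 67, 73 and 41 cells. Conventional dendritic cells of type 2 were above 0 for Fos in 39.1%, 69.7% and 77.0% of cells, lowest in CONV, while Fosb was above 0 in 76.1%, 84.0% and 77.0%.

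Jun was highest in CONV AsiDNA in several types where it was low, among them alveolar macrophages and B cells, but not in every such type. Alveolar macrophages were above 0 for Jun in 4.59%, 42.0% and 7.53% of cells. B cells were above 0 in 0.308% and 13.1% of cells in CONV and CONV AsiDNA and listed at 0 in FLASH. NK cells held 46.3 adjusted CPM in CONV AsiDNA and were listed at 0 in the other libraries. Patrolling monocytes stood at 192, 238 and 64.3 adjusted CPM, and neutrophils at 9.30, 20.2 and a listing at 0. In T cells, the level was highest in CONV, with 88.9, 80.02 and 1.76 adjusted CPM. In mature dendritic cells, CONV (47.7 adjusted CPM) and CONV AsiDNA (44.4) stood close together, with a listing at 0 for FLASH. In the same alveolar macrophages, mt-Co1 was above 0 in 806 of 936, 212 of 659 and 460 of 478 cells, so the listing of other genes at 0 also differed between libraries there, and its part in the level of Jun was not tested.

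Over all types with equal weight, the differences between libraries were small. The mean of the log2 ratio over 18 to 23 types was between -0.26 for Jun and 0.70 for Egr1 in CONV over CONV AsiDNA, and 0 of the 10 genes passed 2-fold (0.434% of 9900 genes tested were higher and 0.576% lower). In CONV over FLASH it was between -0.02 for Jund and 1.02 for Nr4a1, the only one of the 10 genes past 2-fold (0.98% higher, 0.535% lower). Over the alternative settings Nr4a1 ranged from 0.001, where all gated cells were summed whatever their type, to 1.35 with a prior of 1. In CONV AsiDNA over FLASH it was between -0.22 for Dusp1 and 0.72 for Jun, and none passed 2-fold (0.323% higher, 0.141% lower). This value of Jun ranged from 0.031 to 1.24 over the alternative settings. The medians over the 10 genes were 0.37, 0.44 and 0.06, and over all genes tested -0.06, -0.004 and 0.05. Above 0 were 9 genes, 9 genes and 6 genes, beside 40.6%, 49.5% and 61% of all genes. The SD over types was large beside these means, at 1.44 for Fos in CONV over CONV AsiDNA, where 12 types were above 0 and 10 below.

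**Figure D4:**
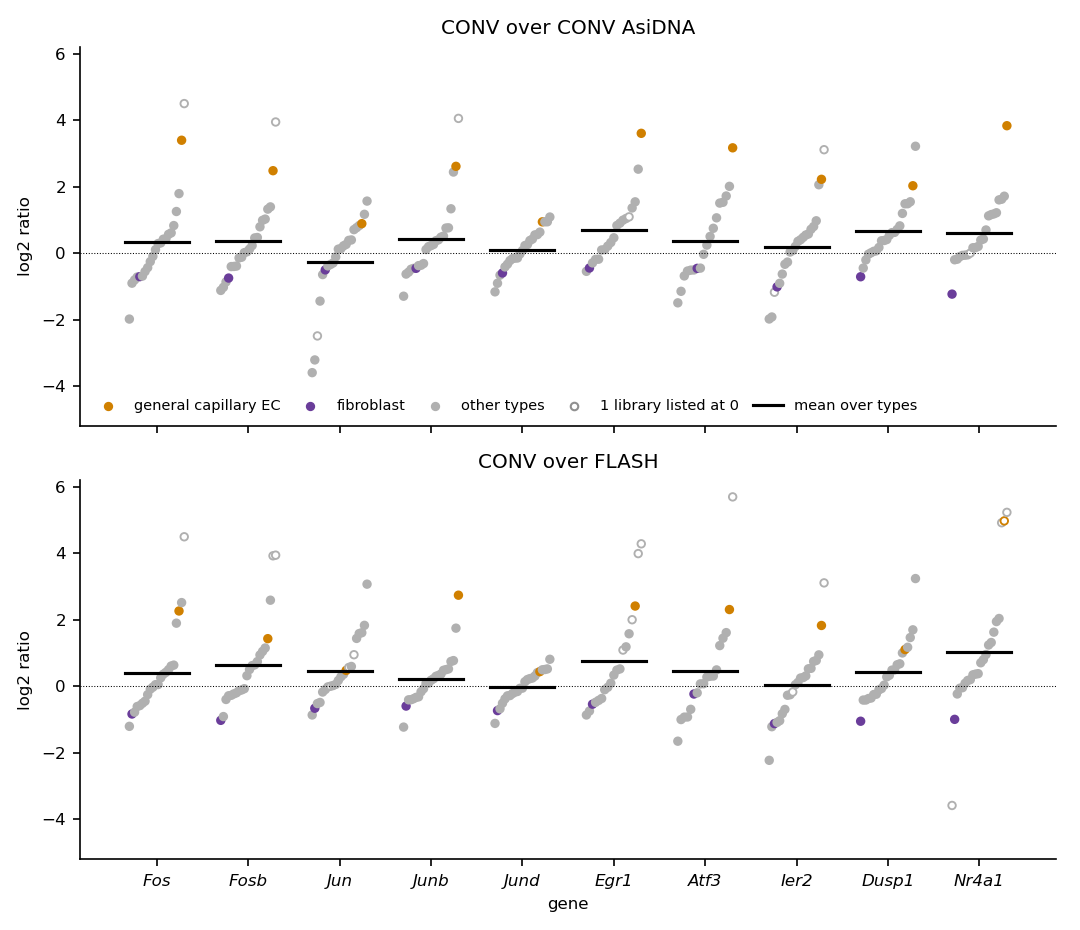
Log2 ratio of adjusted CPM plus 10 (vertical axis) for each of the 10 genes (horizontal axis), with a point for each cell type, in CONV over CONV AsiDNA (top) and CONV over FLASH (bottom). Open points have 1 or both libraries listed at 0, and black lines are means over types. General capillary cells lie above 0 and fibroblasts below 0 for every gene in both panels.

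Related lists were compared in the same way over types. Of the 38 other primary response genes, such as Zfp36 and Klf4, 35 were tested and none passed 2-fold in any pair of libraries, and their medians were 0.12, 0.34 and 0.13. Of the 13 AP-1 partners and other bZIP factors, 10 were tested and none passed 2-fold, with medians of -0.11, 0.09 and 0.11. Of the 20 upstream regulators, such as Srf and Creb1, 18 were tested, none passed 2-fold and the medians were -0.13, 0.03 and 0.12. In these means over types, most of the 10 heat shock genes were lower in CONV. Against CONV AsiDNA, all 10 were below 0 with a median of -0.58, while 40.6% of all genes tested were above 0. Hsph1 (-1.81), a co-chaperone of the Hsp70 system, and Hspa1b (-1.37), an inducible Hsp70, were at least 2-fold lower (0.576% of all genes tested). Against FLASH, 8 of 10 were below 0 with a median of -0.44, while 49.5% of all genes tested were above 0. In that comparison Hsph1 was at least 2-fold lower (-1.58, beside 0.535% of all genes tested). In fibroblasts the heat shock genes were lower in CONV together with the immediate early genes, with medians of -0.71 against CONV AsiDNA and -0.68 against FLASH. Against CONV AsiDNA, conventional dendritic cells of type 1 went the same way, with medians of -0.54 for heat shock and -1.15 for the 10 genes. Both medians were also below 0 in alveolar macrophages (-0.92 and -0.55), B cells (-0.73 and -0.65) and mature dendritic cells (-0.65 and -0.31). The same held in conventional dendritic cells of type 2, interstitial macrophages, large vessel endothelial cells and patrolling monocytes. The lists parted in club cells (-1.32 and 0.85), ciliated cells (-1.37 and 0.65) and mural cells (-1.86 and 0.41). They also parted in AT2 cells (-0.48 and 0.34) and general capillary cells (-0.16 and 2.54). The same was seen in AT1 cells, aerocytes, endothelial cells with no subtype, T cells, NK cells, and mast cells and basophils. In mesothelial cells the heat shock median was above 0 and that of the 10 genes below. In neutrophils and group 2 innate lymphoid cells both medians were above 0.

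Genes outside the 10 were ranked by likeness to them, and those highest in mean Pearson r over the 69 points of type and library were Zfp36 (0.56), Nfkbiz (0.53), Gm26802 (0.46), Csf1 (0.42) and Irf2bp2 (0.41). Zfp36, which codes for an RNA-binding protein that destabilises messages, was the outside gene most like Fos (0.82), Dusp1 (0.74) and Atf3 (0.73). Within the 10, r was at most 0.89, between Fos and Fosb. Gm26802 was the outside gene most like Jun (0.82) and Egr1 (0.77). It lies on chromosome 7 (19298260 to 19300770, GRCm38, minus strand), 1925 bases downstream of Fosb on the same strand. Among outside genes, Irf2bp2 was most like Fosb (0.75), Rps9 like Junb (0.73), Gm26532 like Jund (0.81), Lbr like Ier2 (0.55) and Rasgrp4 like Nr4a1 (0.73). These values describe the order of types in 3 libraries that share their types.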

How the data were processed

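Lung cells of 3 libraries, 1 per condition, were analysed. The submitters' processing notes name Cell Ranger 6.0.0 and mm10, and the paper names R and Seurat. The authors deposited natural log values, which exponentiation less 1 turned back into whole numbers to within 1e-06. How these were adjusted was not given in the sources used here, and the plan had assumed raw counts, so no count model was used. A table with 12 per-sample columns, whose gene identifiers are not those of these libraries, and 3 tables of the authors' own fold changes and p-values were not used.

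Cells with at least 200 genes above 0 and at most 20% mitochondrial share were kept, which removed 1, 2 and 0 cells. A cell took the class with the highest share of its markers above 0, with at least 3 markers and a lead of 0.2 over the next class, and endothelial cells were then split into subtypes. No doublet caller was run, so doublets remain possible. Genes with a sum of at least 20 in a type were tested by size: the log2 ratio with a prior of 10, called at 2-fold. Means over types weighted types equally, for genes tested in at least 5 types. Thinned shares used 1000 adjusted counts per cell. The ratio step was tested on simulated data. The members, markers and lists were chosen with earlier results of these data known. The rule named all 10 genes, members of the lists past 2-fold over types, and the genes most like the 10 by Pearson r of log2(adjusted CPM + 10). The mast cell genes, Jun in CONV AsiDNA and the genes of high and low cells were chosen after seeing their values. Positions are from GENCODE vM21 and promoters from RefSeq. Python 3.11.15, numpy 2.4.6, scipy 1.17.1, pandas 2.3.3 and matplotlib 3.10.9 were used.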

Additional observations from a re-analysis of the deposited data

Results flagged for a closer look

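The log2 ratios of the 10 genes lay above 0 in one cell type and below 0 in another under the same comparison. In CONV over CONV AsiDNA, the median log2 ratio over the 10 genes was 2.54 in general capillary endothelial cells, where every gene was higher, and -0.65 in fibroblasts, where every gene was lower. In CONV over FLASH, the medians were 2.05 and -0.78, again with every gene on the same side within each type. At least 2-fold were 8 genes in each comparison in the capillary cells (5.13% and 5.84% of genes tested), but only 2 and 3 in fibroblasts (5.21% and 5.35%), and in fibroblasts the CONV interval of the share of cells was apart from both others for 0 of the 10. Both comparisons share the CONV library, and the difference between the cell types was not tested, as 1 mouse per condition allows no test.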

How the results depend on the processing

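Alternative settings were run for the medians over types and in general capillary cells, fibroblasts, AT2 cells, and mast cells and basophils. The medians of other types were not rerun. The 12 alternative settings of the plan and 3 chosen after seeing the data kept the sign of the medians that were rerun in CONV over CONV AsiDNA and CONV over FLASH. Over types these ranged from 0.08 to 0.64 and from 0.13 to 0.63, in general capillary cells from 2.35 to 2.65 and from 1.80 to 2.14, and in fibroblasts from -0.66 to -0.49 and from -0.80 to -0.64. The lowest values over types came from summing all gated cells whatever their type. In CONV AsiDNA over FLASH the median over types went from -0.08 to 0.21. The signs of single genes over types were less stable, and under at least 1 setting they turned for 5 genes in CONV over CONV AsiDNA (Jun, Jund, Atf3, Ier2 and Nr4a1), 3 in CONV over FLASH (Jund, Atf3 and Ier2) and 5 in CONV AsiDNA over FLASH (Fos, Junb, Jund, Egr1 and Atf3). Counts past 2-fold rested on few genes. In CONV over FLASH over types, the count of 1 higher gene became 0 with a mitochondrial limit of 5%, with a prior of 50, with all gated cells summed and with types above 0 in both libraries only, and 2 with a prior of 1. In CONV AsiDNA over FLASH it became 1 with a prior of 1. In fibroblasts, the count of 2 genes lower than in CONV AsiDNA became 1 with a lead of 0.4 and with a prior of 50, and 0 with cells thinned to 1000, where the count of 3 against FLASH became 1. That count ranged from 1 to 4 over all settings, and the counts of 8 in general capillary cells from 8 to 9 against CONV AsiDNA and from 7 to 8 against FLASH. The cause was not tested. No paired analysis was possible because each condition has 1 library. How the values were adjusted is not known, so what depth limits for low genes is unknown, and types with few CONV cells, such as the 20 mesothelial cells and 20 mature dendritic cells, give wide intervals.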
